A study of Glycine max with 6 samples.

Results

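The regions described here are the 575 places on soybean chromosome 14 at which chromatin was recovered with both antibodies in both biological replicates. Their members were chosen by peak calls: intervals of the 4 deposited peak lists that shared at least 1 base were merged, and a merged region on chromosome 14 was kept when every list held a peak in it. These 575 were among 2567 merged regions of the chromosome and among 15473 such shared regions of the whole series, of which 14815 lay on the other 19 chromosomes. Over all 64222 merged regions of the series, 24.1% held a peak in all 4 lists. The chromosome was picked for its low density of shared regions, so its density is given as a description, without a test, and the same holds for all values below, since the calls that chose the members and the values of the peaks come from the same libraries.

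The study mapped where the protein GLYMA.04G093300 lies on chromatin in early maturation embryos of the soybean cultivar Williams 82, dissected from seeds of 6 to 7 mm, by chromatin immunoprecipitation and sequencing (ChIP-seq). Each of 2 biological replicates was precipitated with an antibody to one peptide of the protein (Ab1, anti-peptide 1) and with an antibody to another (Ab2, anti-peptide 2), and each has a library of input, that is, total chromatin. No genotype without the protein and no immunoprecipitate with an unrelated antibody is among the 6 libraries, so binding by the protein and unspecific recovery cannot be told apart. All libraries come from the same cultivar, tissue and stage without any treatment or transgene named in the labels, and embryo cells of all kinds are averaged in them.

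In ChIP-seq, fixed chromatin is sheared and DNA that comes down with an antibody is sequenced, and a peak is a stretch where this DNA is denser than in the background. Proteins that bind DNA to regulate genes are commonly found next to genes. Soybean chromosomes are known for gene-rich arms around a long, gene-poor and repeat-rich middle that surrounds the centromere, so positions along a chromosome are informative about where such a protein is recovered. Early maturation is the phase in which a legume embryo stops dividing and begins to store protein and oil. The peak names of all 4 lists carry the tag HB22, which the labels do not explain.

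Chromosome 14 held fewer shared regions per length than any other chromosome. Its density was 11.7 per Mb, against 16.5 per Mb over the other 19 chromosomes together, a ratio of 0.713. The next in order were close, with 12.2 per Mb on chromosome 1, 12.6 on chromosome 18 and 12.9 on chromosome 15, while the densest, chromosome 13, had 25.3. The place of chromosome 14 as the lowest was therefore narrow, and chromosome 1 had the lower density, 10.58 against 10.62 per Mb, when regions were built from summits within 150 bp. By number rather than density, chromosome 16 had fewer shared regions, with 504 on a shorter chromosome. At the density of the other chromosomes chromosome 14 would have held 806 regions, 231 more than it did. Its share of the summed length of the 20 chromosomes was 5.16%, and its share of their shared regions was 3.74% (95% Wilson interval 3.45 to 4.05; Wilson intervals here cover counting error only).

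The low density was present in every list. Ab1 gave 2351 peaks on chromosome 14 in replicate 1 and 1698 in replicate 2, and Ab2 gave 1088 and 824. Per Mb these were 0.763 and 0.739 times the peaks of the other chromosomes for Ab1 replicates 1 and 2, and 0.747 and 0.744 times for Ab2. The 4 ratios lay within a narrow range, so no single library set the low value, and regions of 1 list alone, at 0.829 times, and regions of both Ab1 lists and no Ab2 list, at 0.721 times, were sparse as well. Over the whole chromosome, sharing between lists was close to that elsewhere: 22.4% of the merged regions of chromosome 14 held a peak in all 4 lists (20.8 to 24.1) against 24.2% on the other chromosomes (23.8 to 24.5). This share was the lowest of the 20 chromosomes, but chromosome 12 had 22.43% and chromosome 14 had 22.40%.

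Shared regions of chromosome 14 lay mostly at its ends, as did its merged regions as a whole. The outermost 20% at either end held 489 of the 575, or 85.0% (81.9 to 87.7), against 69.9% on the other chromosomes, and among single chromosomes only chromosome 4 had more, with 87.1%. Of all merged regions, shared or not, 81.5% (79.9 to 83.0) lay in these zones on chromosome 14, against 69.1% on the other chromosomes. The first 20% of the chromosome held 306 regions or 31.3 per Mb, close to the median of 32.3 per Mb over the other chromosomes. The last 20% held 183 or 18.7 per Mb, against a median of 28.8, and only 2 chromosomes were sparser there. The middle 60% held 86 regions or 2.93 per Mb, the lowest value of any chromosome, against a median of 6.41 per Mb and a highest value of 27.6 on chromosome 13. Chromosome 4 was next with 3.06 per Mb, and it became the lowest without Ab2 replicate 1 (3.53 against 3.71 per Mb) and without Ab2 replicate 2 (4.26 against 4.87).

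**Figure D1:**
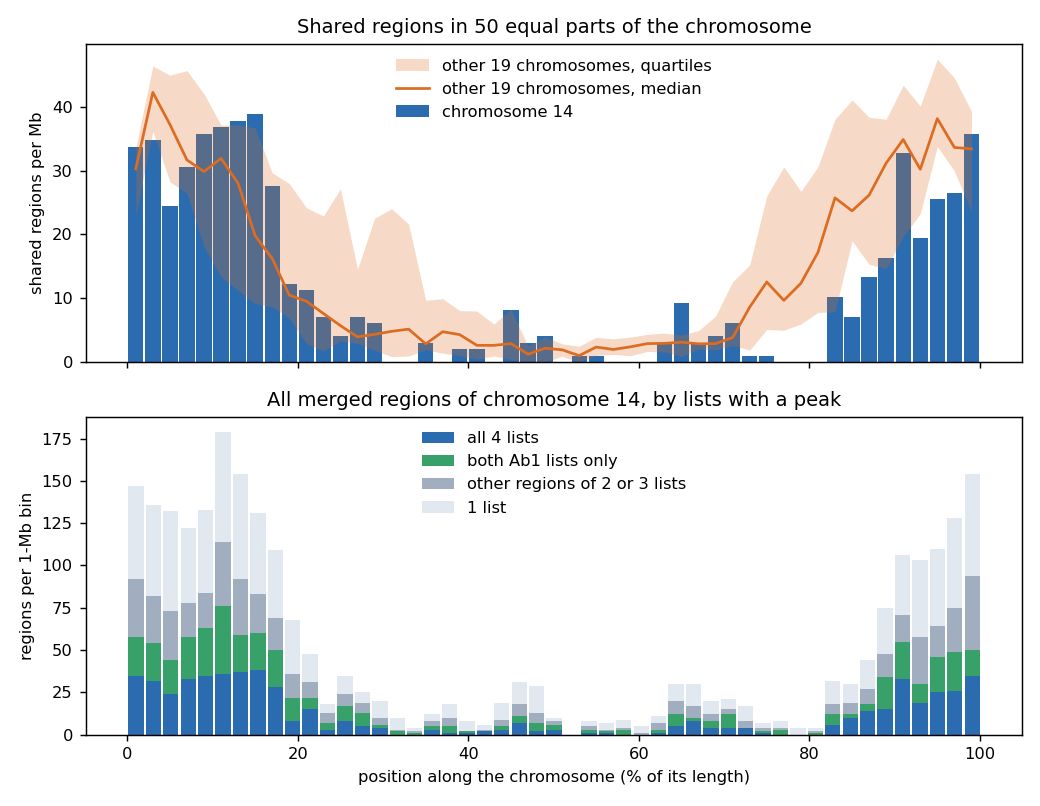
Upper panel: shared regions per Mb (y axis) in 50 equal parts of chromosome 14 (bars), by position in percent of its length (x axis), with the median (line) and quartiles (band) of the other 19 chromosomes. Lower panel: all merged regions of chromosome 14 per 1-Mb bin, stacked by the lists that held a peak. The bars stand above the line in the first and the last part and around 15%. They lie below it from 73 to 97% and fall to 0 at 77 to 81%, where the line lies between 9.68 and 17.2 per Mb.

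Set against the pooled density of the other chromosomes, the ends of chromosome 14 had 0.867 times as many shared regions per Mb and its middle 60% had 0.355 times. Of the shortfall of 231 regions, 156 (67.6%) fell in the middle, which is 60% of the length, and 74.8 (32.4%) at the ends. The ends are pooled here, although they differed. The first 20% had 31.3 per Mb against a median of 32.3 on the others, and the last 20% had 18.7 against 28.8. The value for the middle was 0.406 without chromosome 13 among the others and 0.594 when only the outermost 10% counted as ends. The ends had 8.53 times the density of the middle on chromosome 14, against a median of 4.203 times over the other chromosomes. Chromosome 4 exceeded it with 10.1 times.

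The flanks of the chromosome differed. In 50 equal parts of the length, chromosome 14 lay below the median of the other chromosomes in 30 parts and above it in 20. It was below in 18 of the 30 parts of the middle 60% and in 12 of the 20 outer parts. The middle was thus not below the median throughout, with 8.17 per Mb against 2.91 around 45% and 9.19 against 3.13 around 65%. At 11 to 17% of the length it was above the median, with 38.8 per Mb against 19.8 in the part around 15%. From 73 to 97% of the length it was below, with 1.02 per Mb against 12.6 in the part around 75%. It had 7.15 against 23.7 around 85% and 25.5 against 38.1 around 95%. Only in the last part, around 99%, was it above again, with 35.8 against 33.4. Against the median of the others, the dense left end thus ran further inward, and the right end was sparser up to its last part.

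**Figure D2:**
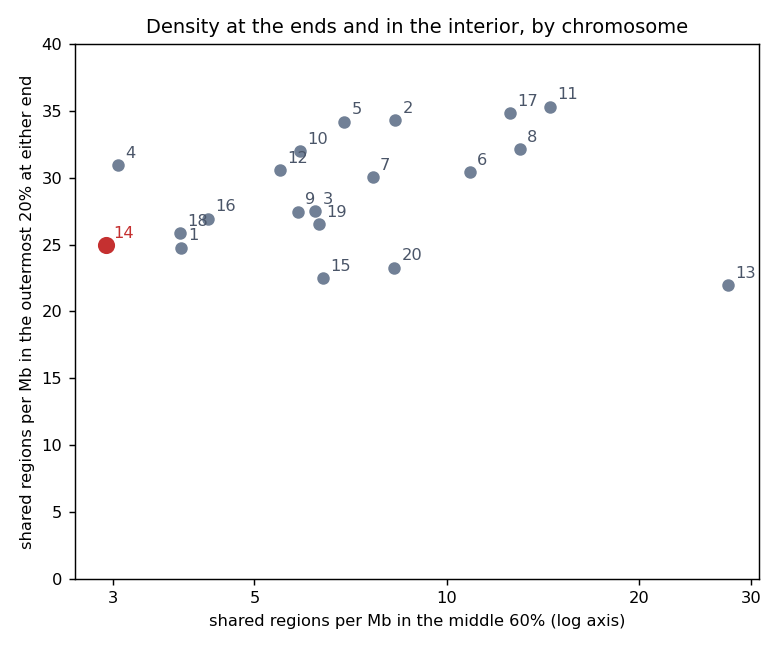
Shared regions per Mb in the outermost 20% at either end (y axis) against the middle 60% (x axis, log scale), 1 point per chromosome with its number. Chromosome 14, in red, is the leftmost point at 2.93 per Mb in the middle, and its 24.98 per Mb at the ends is the fifth lowest of the 20.

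Counted in bins of 1 Mb by summit, the position of the strongest peak of a region, the profile of chromosome 14 had a rich left end, a thin middle and a rich right end. The 9 bins from 0 to 9 Mb held between 24 and 38 regions each. The densest was 7 to 8 Mb with 38, followed by 6 to 7 Mb with 37 and 5 to 6 Mb with 36. The bins at 0 to 1 Mb, 4 to 5 Mb and 48 to 49 Mb had 35 each. No bin of chromosome 14 was as dense as the densest bins of other chromosomes, whose highest bins held 46 to 63 regions. Only 13 of its 49 bins held 20 or more regions, and these carried 417 of the 575 members, or 72.5%.

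Between the bins of at least 10 regions nearest to the middle, from 11 to 41 Mb, lay a stretch of 30 Mb with 77 shared regions, 2.57 per Mb. This was 61.3% of the chromosome, against a median of 48.7% for the same measure on the other chromosomes. Only chromosome 1, at 63.4%, had a larger part of its length in such a stretch. By a stricter measure chromosome 14 was not extreme. Its longest run of bins with at most 2 shared regions was 6 bins, from 25 to 31 Mb. This was at place 9 from the lowest of the 20, against a median of 7 bins on the others and a highest value of 13. Left of the stretch of 30 Mb were 321 regions at 29.2 per Mb and right of it 177 at 22.3 per Mb. Within the stretch the 2.57 per Mb compares with a median of 2.87 over the other chromosomes, but the rule for the stretch holds this density low on every chromosome. Outside it the 26.3 per Mb of chromosome 14 was the seventh lowest of the 20, against a median of 27.6. The lists agreed on this share: the stretch held 17.4 and 16.5% of the peaks of Ab1 replicates 1 and 2 on the chromosome, and 15.6 and 14.7% of those of Ab2.

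The interior was thin but not empty. A shared region was missing from 8 of the 49 bins, or 16.3%, the highest percentage of the 20 chromosomes, followed by chromosome 19 with 8 bins or 15.7%. A further 8 bins held 1 or 2. The empty bins formed runs at 15 to 17 Mb, 28 to 30 Mb and 37 to 40 Mb, with the bin at 25 to 26 Mb standing by itself. Such runs were also found elsewhere: 4 other chromosomes had a longest run of 3 bins, 2 had one of 4 bins, and the median of the others was 2.

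Most of the empty bins held weaker or unshared signal. In the 8 bins lay 44 merged regions of fewer than 4 lists, of which 16 had a peak in both Ab1 lists, spread over 6 of the bins. The bin at 25 to 26 Mb held no peak of any list. A bin without a shared region is therefore not a bin without recovered chromatin at this depth, with that bin as the exception.

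The longest distance between neighbouring summits was 4.14 Mb, between the region ending at 36235876 and the one beginning at 40376370. It was longer than the median of 2.99 Mb over the other chromosomes and was exceeded on 3 of them, with 4.77 Mb on chromosome 13 as the longest. Inside it were 28 merged regions, 16 of 1 list, 9 of 2 lists and 3 of 3 lists. Ab1 replicate 1 had a peak in 23 of these and Ab1 replicate 2 in 11, against 4 and 5 for the Ab2 replicates. No fold enrichment in the gap exceeded 6.96 and 4.80 in Ab1 replicates 1 and 2, or 5.70 and 4.97 in those of Ab2. Without Ab2 replicate 1, and likewise without Ab2 replicate 2, 2 shared regions fell inside it, and its longest remaining piece was 2.94 and 3.12 Mb, respectively.

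The next gaps were 3.58 Mb, from 27405190 to 30984531, and 3.01 Mb, from 14403597 to 17410490. They held 29 and 24 merged regions, 6 and 4 of which had a peak in 3 lists. The regions that border the longest gap were unlike each other. The left one, chromosome 14 from 36235539 to 36235876, had fold enrichments of 10.0 and 6.75 with Ab1 and 5.86 and 4.97 with Ab2. The right one, from 40376370 to 40377144, was among the weaker members, with 4.10 and 3.78 with Ab1 and 5.10 and 3.80 with Ab2.

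Fold enrichment, the ratio of fragments to local background at a summit as given by the authors' peak caller, was close to that of the other chromosomes in each library. Over the 575 members the medians for Ab1 replicates 1 and 2 were 7.60 and 5.89, against 7.59 and 5.96 over the 14815 regions elsewhere. For Ab2 it was 5.96 and 5.57 against 5.92 and 5.51. Medians of single chromosomes spanned 7.40 to 7.89, 5.83 to 6.14, 5.77 to 6.06 and 5.35 to 5.67 in the same order of libraries, and chromosome 14 lay inside each of these ranges. A chromosome with few shared regions thus had regions of usual strength. Folds were scaled within each library by the authors, so levels are not compared between libraries.

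The depth behind these folds was recovered from the deposited fold and p of each peak. The median member rested on 44 and 48 fragments at its summit with Ab1 and on 23 and 20 with Ab2, the same medians as over the other chromosomes in all 4 libraries. Median local backgrounds of the members were 4.66, 6.02, 2.80 and 2.69, against 4.58, 6.00, 2.88 and 2.69 elsewhere. The Ab2 values thus carry the larger counting error.

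Strength did not follow position on the chromosome in an evident way. Members of the first 20%, the last 20% and the middle had median folds of 7.65, 7.58 and 7.66 in Ab1 replicate 1, and 5.94, 5.88 and 5.71 in Ab1 replicate 2. In Ab2 replicate 1 they were 5.90, 6.06 and 5.97, and in Ab2 replicate 2 they were 5.63, 5.48 and 5.29. The differences between zones were small beside the spread of members within a zone, whose quartiles in the middle were 6.17 and 9.63 in Ab1 replicate 1. Of the 57 strongest members, 31 lay in the first 20%, 16 in the last 20% and 10 in the middle. These were 10.1, 8.74 and 11.6% of the members of each zone. Of the 57 weakest, 29, 16 and 12 lay in the same zones, or 9.48, 8.74 and 13.95% of their members.

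**Figure D3:**
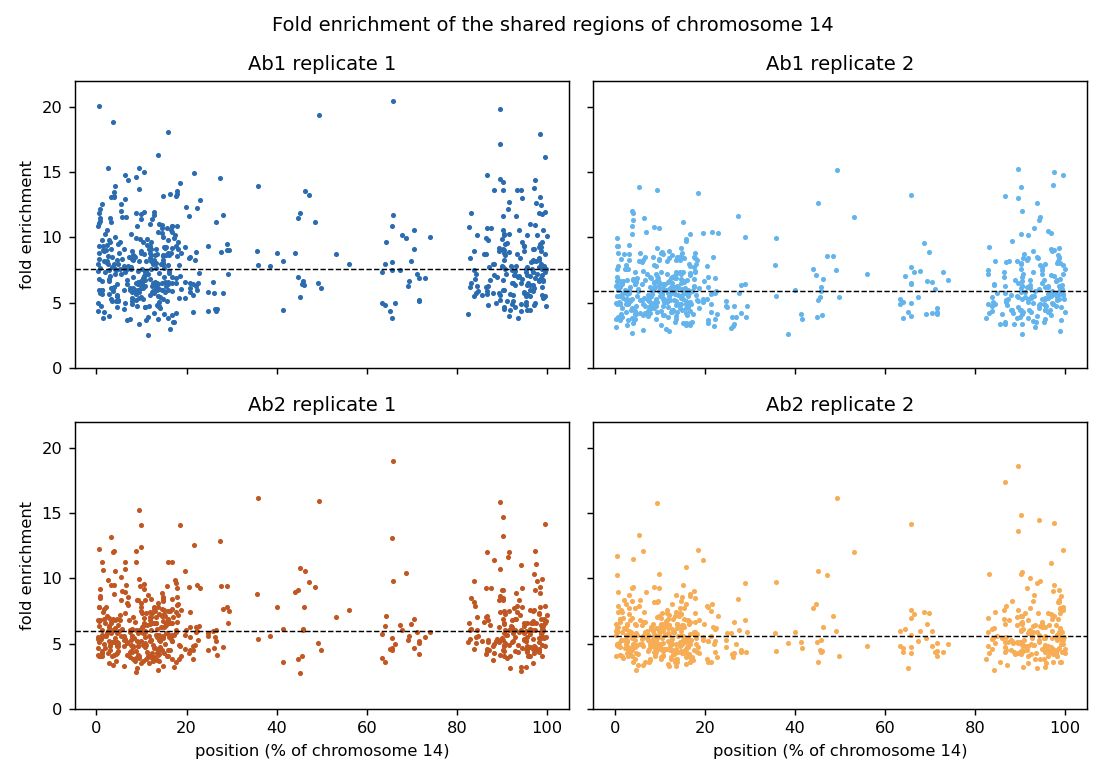
Fold enrichment (y axis) of each of the 575 shared regions of chromosome 14 against its position in percent of the chromosome (x axis), 1 panel per library. The dashed line is the median of the library, from 5.57 to 7.60. Points are few between about 30 and 80% of the length but reach as high there as at the ends.

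The strongest members were ordered by the mean rank of their fold over the 4 libraries, which puts them near the top of each list by selection. The first and the second lay in the middle of the chromosome. The first, from 24169646 to 24170282 and at 49.4% of the length, had folds of 19.4 and 15.2 with Ab1 and 15.9 and 16.1 with Ab2, or 17.3 ± 2.99 (SD, n = 2) and 16.0 ± 0.157 (n = 2). It rested on 120 and 105 fragments with Ab1 and 62 and 51 with Ab2, and was the 17th of the 15390 shared regions of all chromosomes. Its bin held 3 shared regions, and the nearest other summit was 92.1 kb away.

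The second, from 32163668 to 32164641, had folds of 20.5 and 13.3 with Ab1 and 18.98 and 14.2 with Ab2, the highest of the chromosome in replicate 1 of both antibodies. Its Ab1 mean was 16.9 ± 5.11 (SD, n = 2), and its Ab2 mean was 16.6 ± 3.42 (n = 2). It lay inside the stretch of 30 Mb described above, at 65.7% of the length. Its bin held 8 shared regions, and the nearest other summit was 7.54 kb away. The third, from 43794851 to 43795577, had folds of 19.9 and 13.1 with Ab1 and 15.9 and 13.7 with Ab2.

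The fifth, from 43803252 to 43804505, stood only 8.57 kb from the third by summit. It had the highest folds of the chromosome in replicate 2 of both antibodies, at 15.3 with Ab1 and 18.6 with Ab2, against 17.1 and 10.7 in replicate 1. In Ab2 the local background of this region was 5.42 in replicate 1 and 2.65 in replicate 2, at 68 and 67 fragments.

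The fourth, from 48673298 to 48674376 near the right tip, had 16.2 and 14.8 with Ab1 and 14.2 and 12.2 with Ab2. The sixth, from 4619670 to 4621348, had 13.7 and 13.6 with Ab1 and 15.3 and 15.8 with Ab2. The fourth lay at 99.4% of the length of the chromosome and the sixth at 9.44%. The seventh, from 44160332 to 44161652, gave 13.7 and 13.9 with Ab1 and 14.7 and 14.9 with Ab2, with the summits of the 4 lists up to 694 bp apart. The eighth and ninth, from 42458118 to 42458699 and from 9078659 to 9079239, had Ab1 means of 13.98 ± 1.11 and 13.8 ± 0.498 (SD, n = 2). The tenth, from 262499 to 263032, had 20.1 and 9.93 with Ab1 and 12.3 and 11.7 with Ab2.

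**Figure D4:**
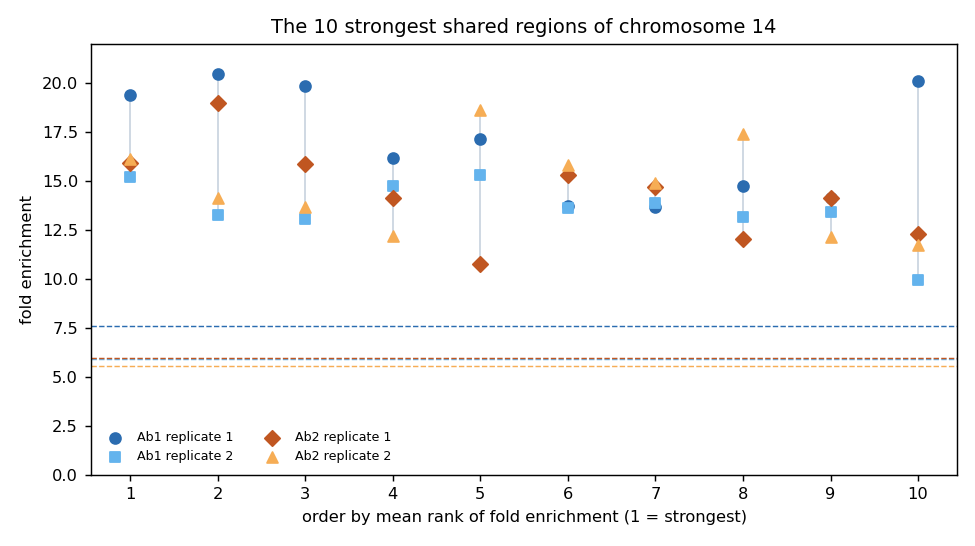
Fold enrichment (y axis) of the 10 strongest shared regions of chromosome 14, in order of mean rank (x axis), with 1 symbol per library and a grey line over their range. Dashed lines are the medians of the 575 members in each library, from 5.57 to 7.60, and every symbol lies above all of them.

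In the ranking over all chromosomes the members of chromosome 14 took their share. Of the strongest 1% of all shared regions, 154 in number, 7 were on chromosome 14, or 1.22% of its members. Of the strongest 10% there were 63, or 10.96% of its members, and of the weakest 10% there were 70, or 12.2%. Its single highest folds are 1 value per library, from 575 regions on this chromosome against a median of 741 on the others. With Ab1 its maxima were 20.5 and 15.3, below the median maxima of 22.2 and 16.6 over the other chromosomes, and that of replicate 2 was the lowest of the 20. With Ab2 they were 18.98 and 18.6, against median maxima of 18.7 and 17.4, at places 12 and 15 from the lowest of the 20.

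The 5 weakest members were all at the ends, where 85.0% of all members lay. The weakest, from 3043020 to 3043430, had folds of 4.52 and 2.89 with Ab1 and 3.27 and 3.33 with Ab2. It still rested on 39 and 48 fragments with Ab1, close to the median member, but on a local background of 7.85 in Ab1 replicate 1, against a median of 4.66. The next, from 7727450 to 7727755, had 3.85 and 3.46 with Ab1 and 4.04 and 3.43 with Ab2. The others began at 45839403, 2278538 and 5595944, with no fold above 4.66.

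The rule asks for a peak in every list, and the lists of Ab2 set its edge. On chromosome 14, 409 merged regions held a peak in 3 lists, or 15.9%, close to the 16.1% on the other chromosomes. Of these, 295 lacked a peak in Ab2 replicate 2 alone and 108 in Ab2 replicate 1 alone, while 4 lacked Ab1 replicate 2 and 2 lacked Ab1 replicate 1. Just inside the rule, the lowest −log10 q of a member was 2.64 and 3.20 with Ab1, and it was 2.17 and 2.22 with Ab2. Just outside it, the regions of 3 lists had median folds of 5.48, 4.30, 4.72 and 4.68 in Ab1 replicates 1 and 2 and Ab2 replicates 1 and 2, below the medians of the members in every library.

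Of the 1427 regions of both Ab1 lists, 40.3% (37.8 to 42.9) were found in both Ab2 lists, against 41.2% (40.7 to 41.7) on the other chromosomes. In the middle 60% of chromosome 14 the share was 33.6% (28.1 to 39.6, 86 of 256), against 41.8% (39.0 to 44.6) at its ends and 41.1% (40.2 to 42.1) in the middle of the other chromosomes. The value of the middle rested on few regions. Its interval overlapped that of the ends of chromosome 14 but not that of the middle of the other chromosomes. Of all merged regions of the middle 60%, 18.1% (14.9 to 21.8) held a peak in all 4 lists, against 23.5% (22.9 to 24.1) on the other chromosomes. Regions are not independent replicates, and this split by zone was not repeated at other settings. No test was made, since the same peak calls chose the members. Over the whole chromosome, the share of Ab1 regions found with Ab2 moved with the length of the lists, to 70.0% when every list was trimmed to the length of the shortest. It was 24.9% without Ab1 replicate 2 and 61.0% without Ab2 replicate 2. Of the 588 regions of both Ab2 lists, 97.8% (96.3 to 98.7) were found in both Ab1 lists, against 98.2% on the other chromosomes.

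Regions of both Ab2 lists without a peak of Ab1 numbered 7 on chromosome 14. This was 0.273% (0.132 to 0.562) of its merged regions, against 0.171% (0.142 to 0.207) on the other chromosomes. In 6 of the 7 both folds were at most 2.12, on local backgrounds of 71.96 to 155 fragments. The remaining one, from 36974692 to 36974915, had folds of 4.50 and 4.97 on backgrounds of 2.34 and 2.22, and lay inside the longest gap between shared regions. Regions of both Ab1 lists with no peak of Ab2 numbered 449. This was 31.5% of the regions of both Ab1 lists, close to the 31.8% on the other chromosomes. The strongest of the 449 by mean fold, from 6347946 to 6348436, had 6.58 and 7.58.

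Ranks of fold agreed more within a replicate number than within an antibody. Over the 575 members Spearman's rho was 0.748 between Ab1 and Ab2 of replicate 1 and 0.685 between those of replicate 2. It was 0.629 between the replicates of Ab1 and 0.588 between those of Ab2. Pairs that shared neither antibody nor replicate number had 0.585 and 0.588, no lower than about the value for Ab2. Over the other chromosomes rho was 0.708 and 0.665 within a replicate number against 0.599 and 0.494 within an antibody. Pairs that shared neither had 0.517 and 0.536 there, above the replicates of Ab2. Both antibodies of a replicate have the same library of input, and whether a common background enters these ranks was not tested. These are correlations across regions of the same libraries, given as a description, and regions are not independent replicates.

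Members were of ordinary size. Their median length was 595 bp (quartiles 454 and 811), against 602 bp elsewhere, and together they covered 399 kb or 0.815% of the chromosome, the lowest percentage of the 20. In 458 members each list held 1 peak. The summits of the 4 lists spanned a median of 77 bp, against 80 bp elsewhere, and lay within 100 bp of each other in 63.7% (59.6 to 67.5) of members. In the middle of the chromosome the median span was 66 bp, so thinly spread regions were placed as exactly as the others.

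Of the members, 20 or 3.48% (2.26 to 5.31) were at least 1500 bp long, against 2.95% elsewhere. The longest, from 1379899 to 1382777, spanned 2879 bp with folds of only 5.67 and 5.62 with Ab1 and 5.19 and 5.25 with Ab2, and was built from 2 to 4 peaks per list. The second, from 47709224 to 47711659, was 2436 bp long and among the strongest, with 12.6 and 15.0 with Ab1 and 11.1 and 14.3 with Ab2. The third, from 45935306 to 45937555, was 2250 bp long, and its summits lay up to 1468 bp apart, the widest span of any member. Length and strength thus did not go together in these 3 regions.

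Spacing was wider than elsewhere for typical members and similar only for the closest ones, up to about 1.07 kb. From a member to its nearest neighbour, summit to summit, the median was 9.19 kb, with quartiles of 2.69 and 25.8 kb, against 7.77 kb with quartiles of 2.53 and 20.8 kb on the other chromosomes. Only 2 chromosomes had a wider median. A neighbour within 2 kb was found for 95 members, or 16.5% (13.7 to 19.8), against 20.03% (19.4 to 20.7). Only chromosome 3 had a lower share, with 16.3%. No neighbour lay within 100 kb for 34 members, or 5.91% (4.26 to 8.15), against 3.97% (3.67 to 4.30).

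**Figure D5:**
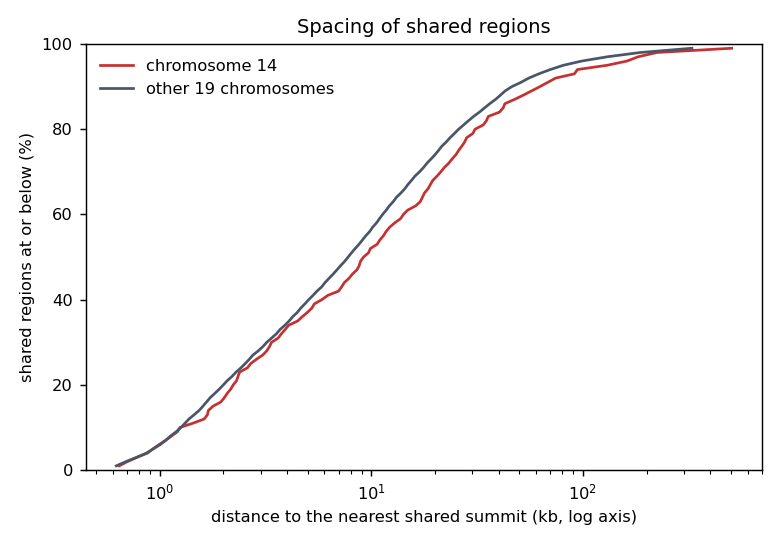
Percent of shared regions (y axis) whose nearest shared summit lies at or below a distance (x axis, kb, log scale), for chromosome 14 (red) and the other 19 chromosomes (grey), drawn at whole percentiles. The curves run together up to about 1 kb and then part, with medians of 9.19 and 7.77 kb.

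Isolation was a matter of the middle. There, 27 of 86 members, or 31.4%, had no neighbour within 100 kb, against 0 of 306 in the first 20% and 7 of 183 in the last 20%. Close pairs were found in the middle all the same: 18 of its members, or 20.9%, had a neighbour within 2 kb, against 15.4 and 16.4% in the first and the last 20%. The median distance in the middle was 42.3 kb with quartiles of 2.96 and 143 kb.

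In 6 bins of the middle there was a single shared region. The strongest of them, from 26035298 to 26035950, had folds of 8.73 and 11.6 with Ab1 and 7.08 and 12.1 with Ab2. Its neighbour on the right, from 27403937 to 27405190, was 1.37 Mb away and had 7.96 and 7.19 with Ab1 and 7.56 and 4.83 with Ab2. The region from 19558086 to 19558947 had 8.81 and 5.94 with Ab1 and 7.78 and 5.90 with Ab2. These 3 were near or above the median of the chromosome in all libraries except the Ab2 replicate 2 value of 4.83. The region from 18815130 to 18816134 had 7.78 and 2.59 with Ab1, with 37 fragments in each library, and 5.56 and 5.08 with Ab2. The other 2 were the left border of the longest gap and the region from 30984531 to 30985033, whose nearest shared summit lay only 25.2 kb away across the border of its bin. This last one had 7.31 and 4.85 with Ab1 and 3.90 and 4.85 with Ab2.

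The closest members stood 493 bp apart by summit, on the left end. The region from 6696388 to 6696881 had folds of 16.4 and 8.28 with Ab1 and 7.83 and 8.76 with Ab2. Its neighbour, from 6696935 to 6697287, had 3.78 and 3.98 with Ab1 and 2.94 and 4.61 with Ab2, so a strong and a weak region lay side by side in all libraries. The next pair, 606 bp apart, ran from 5870612 to 5871057 and from 5871236 to 5871704. With Ab1 it was more even, at 7.58 and 6.68 against 8.18 and 5.52. With Ab2 the right-hand region was the higher in both replicates, at 5.27 and 5.70 against 7.07 and 7.22. In the third pair, 634 bp apart, the region from 7741374 to 7741830 had 18.1 and 9.90 with Ab1, and the one from 7740780 to 7741298 had 5.94 and 9.75. With Ab2 the former had 11.2 and 10.9 and the latter 6.74 and 8.07.

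The outermost members were near the ends of the covered sequence. The first, from 118146 to 118588, had folds of 4.38 and 4.97 with Ab1 and 5.39 and 5.70 with Ab2. The last, from 48932117 to 48932565, had 10.1 and 7.61 with Ab1 and 7.23 and 4.59 with Ab2. The last 1-Mb bin held 35 shared regions although the peaks of the chromosome ended at 48945383, so both tips were dense.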

How the data were processed

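Per the labels' protocols, chromatin sheared to 100 to 500 bp was immunoprecipitated and its libraries received 15 cycles of PCR. The submitters' processing notes name Bowtie 0.12.7 and MACS2. With a genome build not given in the sources used here, no gene was assigned and no sequence was read. Groups and replicate numbers came from the sample titles. Each immunoprecipitated library has its own peak list; input libraries entered no result directly.

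The fold enrichment, a ratio, was taken as deposited, as were −log10 p and −log10 q, all computed per peak by the authors' caller. The deposited integer score was not used. Every list was called at a q-value of 0.01, per the tag in its peak names. A region's fold in a library is that of its peak with the highest −log10 p, and its summit is that of the highest −log10 p of all lists. Coordinates are 1-based. Chromosome length is the end of the last peak of any list. Fragments and background at a summit were solved from fold and p, reading the fold as (fragments + 1)/(background + 1) and p as the upper Poisson tail; whole fragments matched the deposited −log10 p within 0.01 for 100% of peaks, in Ab1 replicate 2 after scaling the pile-up by 0.881. Read totals are unknown. That scaling and the tag "cat" in the peak names set Ab1 replicate 2 apart.

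Named regions are the 10 strongest and 5 weakest by mean rank, the 3 longest, those bordering the longest gap, the first and last, those standing alone in a 1-Mb bin of the middle 60%, and the 3 closest pairs. Bins named are the densest 5, with ties, and runs of empty bins; the strongest regions of 1 antibody alone were chosen after their values were seen. The members, lists and measures were chosen with earlier results of these data known. Other settings tried were −log10 q of 5 or more, matching by summits within 150 bp or by 50% reciprocal overlap, lists of equal length, each library left out, other bins, summits and end widths. Python 3.11.15, pandas 2.3.3 and scipy 1.17.1 were used, and the scripts were tested on simulated data.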

Additional observations from a re-analysis of the deposited data

How the results depend on the processing

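Of 112 alternative values for 13 measures of chromosome 14, 92 kept to within 1.5 times a count or distance, the 95% interval of a share or density ratio, or 1 SD between replicates of a median fold, and 20 moved. None of these values was tested, so none could lose a call. With a reciprocal overlap of at least 50%, counted as peaks of Ab1 replicate 1, the shared regions fell to 202 or 4.13 per Mb, the median distance to the nearest rose to 36.4 kb, 3.96% had a neighbour within 2 kb, and 17.0% of the Ab1 regions were found with Ab2; a fold for both antibodies was not computed there. That share was 36.2% at a −log10 q of at least 5 and 70.0% with lists of equal length. The mean of the Ab2 medians of fold became 6.204 and 6.27 under the same settings, from 5.76. Ends of 10% held 50.96% of the members, and the density ratio of the middle was then 0.594. Leaving out 1 library gave 585 to 870 regions, 11.95 to 17.8 per Mb, 18.3 to 22.5% with a neighbour within 2 kb, 24.9 to 61.0% of Ab1 regions found with Ab2, and a mean of the Ab2 medians of 5.29 to 5.71; the highest count came without Ab2 replicate 2, which alone lacked a peak in 295 regions. For the other changes the cause was not tested. The density ratio to the other chromosomes stayed between 0.671 and 0.737 in every setting. The measures of the middle and of the ends against the other chromosomes, and the setting without chromosome 13, were chosen after seeing the data. No paired analysis was possible because no result here comes from a test, although the replicate numbers join the antibodies. Motifs and the reference length of the chromosome were not run. Gene density and mappability along the chromosome were not analysed here.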
